A study of Homo sapiens with 3 samples.

Results

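The comparison set A549 cells given cordycepin beside A549 cells given cordyceps, with the vehicle control kept out of the ratio. It rested on 2 of the 3 arrays of the series, 1 array a condition, and on the 47372 probes that lay outside a corner of the array and had a value on both. A549 is an established human lung adenocarcinoma line of alveolar epithelial origin. In every condition the medium was DMEM with FBS (10%) and penicillin-streptomycin (1%), and it also held zinc sulfate at 16.7 μM, troglitazone, a PPARγ agonist, at 10 μM, and the vitamin nicotinamide at 10 mM. RNA was taken at 48 h. The cordycepin cells received 60 μg/mL, the cordyceps cells 100 μg/mL, and the control cells 0.1% DMSO, which the labels name for the control alone. Cordycepin is 3'-deoxyadenosine, a nucleoside made by the fungus Cordyceps militaris. The labels do not say which preparation of the fungus "cordyceps" was, nor how much cordycepin it held, and the doses differed, so the ratio compares these particular cultures. With 1 array on each side there was no replicate error and no test, and a difference between cultures cannot be told apart from a difference between agents. In bulk RNA, fewer cells expressing a gene and less of its RNA per cell also cannot be told apart.

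The endoplasmic reticulum (ER) folds secreted and membrane proteins. When unfolded proteins build up there, the sensors IRE1, PERK and ATF6 raise chaperones and degradation factors, and PERK, with other kinases that phosphorylate eIF2α, raises ATF4 and the genes of the integrated stress response. Dividing cells express replication genes under E2F control at G1/S and mitotic genes later in the cycle, many of them through a promoter element called the CHR. Cordycepin is phosphorylated inside cells and, lacking the 3' hydroxyl group, ends a growing RNA chain. It is best known for its effects on polyadenylation.

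Detection meant that 50% or more of a probe's spots on an array stood well above background. A difference was called at 2-fold or more after the log2 signal of each array was reduced by its 75th percentile. Signals are the deposited intensities before scaling, in the order control, cordycepin, cordyceps where 3 are given, and folds were taken after scaling. Where only 1 array detected the probe, the fold was a bound, with the dim side set to the probe's signal there or to the lowest signal that array detected, whichever was larger. Of the 22949 probes detected on at least 1 array, 1519 (6.62%) were higher with cordycepin than with cordyceps and 1201 (5.23%) were lower. By the brightest probe of each of 13142 named genes, 845 (6.43%) were higher and 687 (5.23%) were lower. Scaling moved this balance. When arrays were aligned on their medians, 502 probes were higher and 4750 lower, and the median log2 ratio of all probes detected on both arrays moved from -0.06 to -0.63. Outside the corner 47.6% of probes were detected with cordycepin and 41.1% with cordyceps. The medians of the deposited columns, 21.1 and 16.9 over all probes, lay below the lowest detected signals, 21.8 and 34.5. Median scaling therefore aligned the arrays on probes near or below detection. The median log2 ratio of 11771 genes detected on both arrays was -0.09, and list medians below are to be set against it. Median scaling shifted every ratio by -0.58, which moved the all-gene median to -0.66 and left the distance of each list median from it unchanged.

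The ratio of a single probe had an SD of 0.377 in log2 units, estimated from the 2 brightest probes of 2372 genes. Of 88 genes called higher that had a second probe detected on both arrays, 78 had a positive ratio by that probe, and of 121 called lower, 107 had a negative one. Among all such second probes 44.0% were positive and 56.0% negative. The cordyceps array detected fewer probes outside the corner than the cordycepin array, 19477 against 22552, and its lowest detected signal was 34.5 compared with 21.8. Probes detected with cordycepin alone numbered 3473 and with cordyceps alone 400, so bounds lean toward higher with cordycepin, and the part of detection in those bounds was not tested.

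ER chaperones and ER-associated degradation genes were lower with cordycepin than with cordyceps almost throughout. Of 24 listed genes, 21 were detected, and 19 of these were at least 2-fold lower, where 5.23% of all detected genes were; none was higher. The median log2 ratio was -1.89. PDIA4 and ERO1B had probes only in the corner and ERO1A had no named probe. The lowest ratio of all genes measured on both arrays was that of HSPA5, which encodes BiP, the main ER chaperone and a restraint on the stress sensors. Its signal was 2560 in control cells, 1163 with cordycepin and 17397 with cordyceps, 13.9-fold lower with cordycepin (log2 ratio -3.80). The cordyceps value stood far above both others.

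**Figure D1:**
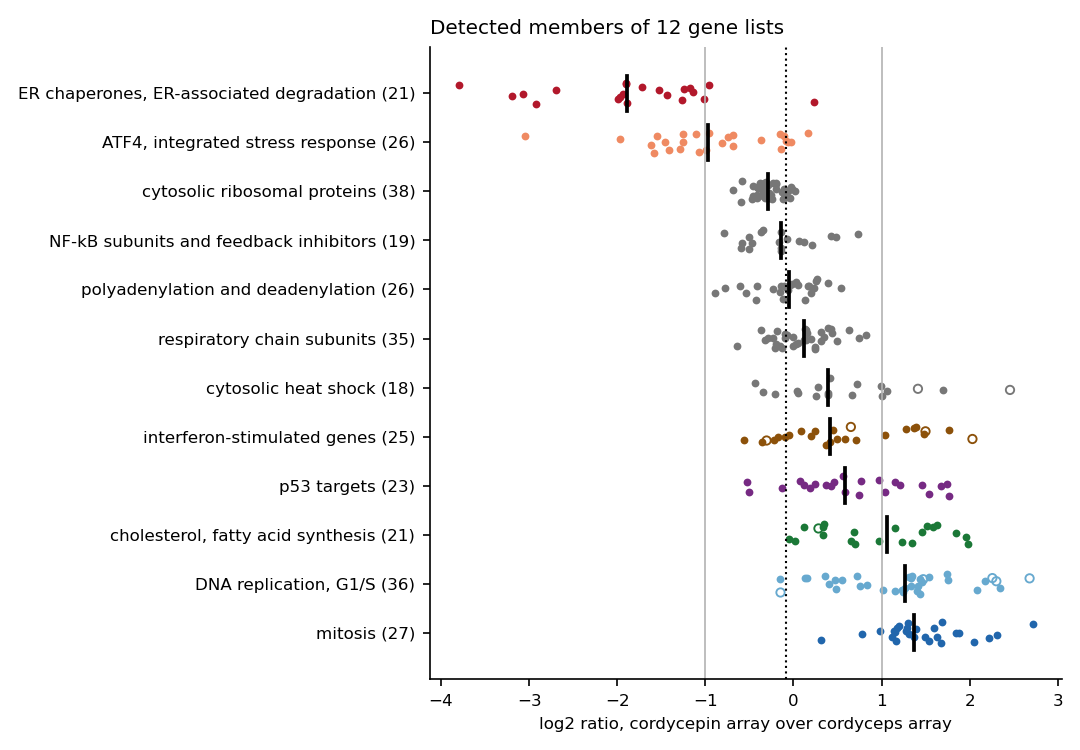
Each point is a detected member of 1 of 12 gene lists, placed by its log2 ratio of the cordycepin array over the cordyceps array (filled, detected on both arrays; open, a bound), with the number of detected members beside each name. Black bars are the medians over members detected on both, the dotted line is the median of all such genes (-0.09) and the grey lines mark 2-fold. The ER list sits to the left with a median of -1.89, and mitosis (1.37) and DNA replication (1.26) to the right; under median scaling, which moves all points by -0.58 and the dotted line to -0.66, the medians of the heat shock, interferon and respiratory chain lists lie below 0.

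The ER stress element, bound by ATF6 with NF-Y, reads CCAAT and CCACG with 9 bases of any kind between them. On either strand it lay in 0.0806% of 27305 promoters of 300 bases from RefSeq (GRCh38.p14), and in 7 of the 22 list members that the table holds, 6 of 18 called and 0 of 1 not called. A match is a description of the letters only. The 250 bases before the start of 3 genes are shown, with the element in capitals. They were picked for holding it: among called members with the element in those bases, these had the lowest ratios. HSPA5 lies at chr9:125241344-125241593 on the minus strand, CRELD2 at chr22:49918384-49918633 on the plus strand and HSP90B1 at chr12:103930160-103930409 on the plus strand.
HSPA5: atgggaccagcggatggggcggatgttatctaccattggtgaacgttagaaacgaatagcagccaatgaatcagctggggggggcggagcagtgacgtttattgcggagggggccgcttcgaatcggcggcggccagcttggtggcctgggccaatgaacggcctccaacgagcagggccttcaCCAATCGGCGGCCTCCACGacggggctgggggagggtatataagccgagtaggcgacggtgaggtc
CRELD2: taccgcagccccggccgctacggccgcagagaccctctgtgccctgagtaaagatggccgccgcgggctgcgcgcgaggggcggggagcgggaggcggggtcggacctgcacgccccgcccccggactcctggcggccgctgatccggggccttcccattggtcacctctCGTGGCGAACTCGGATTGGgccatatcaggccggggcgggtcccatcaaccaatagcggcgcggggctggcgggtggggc
HSP90B1: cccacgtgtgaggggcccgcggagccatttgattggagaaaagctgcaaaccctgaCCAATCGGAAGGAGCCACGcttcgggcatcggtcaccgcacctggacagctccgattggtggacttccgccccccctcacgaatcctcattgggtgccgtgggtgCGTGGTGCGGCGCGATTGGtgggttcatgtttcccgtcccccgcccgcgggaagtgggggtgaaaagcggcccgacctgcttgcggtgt
The element ends 47 bases before the start of HSPA5 and 61 before that of CRELD2, and HSP90B1 holds it at 70 and at 175.

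CRELD2, a secreted ER stress protein, gave 3379 on the control array, 1763 with cordycepin and 17339 with cordyceps, a 9.16-fold difference. HSP90B1, the ER member of the HSP90 family, gave 1957, 1250 and 5151 on the same arrays and was 3.84-fold lower. For both genes the control lay between the treatments and closer to cordycepin. HYOU1, an ER chaperone and exchange factor for BiP, was 8.38-fold lower, with signals of 77.6, 30.2 and 272. Its cordycepin signal was near the lowest that array detected, 21.8, and over the settings tried its log2 ratio ran from -3.64 to -1.85. HERPUD1, which organizes the ER degradation complex, gave 11334, 9801 and 79789 and was 7.58-fold lower. DNAJB9, a BiP co-chaperone, was 6.48-fold lower. SEL1L and SYVN1, which form the ubiquitin ligase complex of ER-associated degradation, were 3.97-fold and 3.71-fold lower. The second SEL1L probe had a log2 ratio of -2.69. The least changed of the called genes were CALR, encoding calreticulin, at 2.01-fold, PDIA6 at 2.21-fold and PDIA3 at 2.26-fold.

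Among the sensors and their outputs, ERN1, which encodes IRE1α, was dim at 25.6 on the control array, 24.3 with cordycepin and 70.4 with cordyceps, a 2.70-fold difference. XBP1, the factor that IRE1 activates by splicing, gave 12345, 6633 and 16888 and was 2.37-fold lower. The genes not called were EDEM1, a degradation lectin at a log2 ratio of -0.96, and DERL3, at 0.23. For 17 of the 19 called genes the control level was closer to cordycepin than to cordyceps, and for 17 it lay between the treated levels. The exceptions in closeness were XBP1 and PDIA6. In the plot of the 3 levels of these genes, the cordyceps point lies to the right of both others in every called gene.

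**Figure D2:**
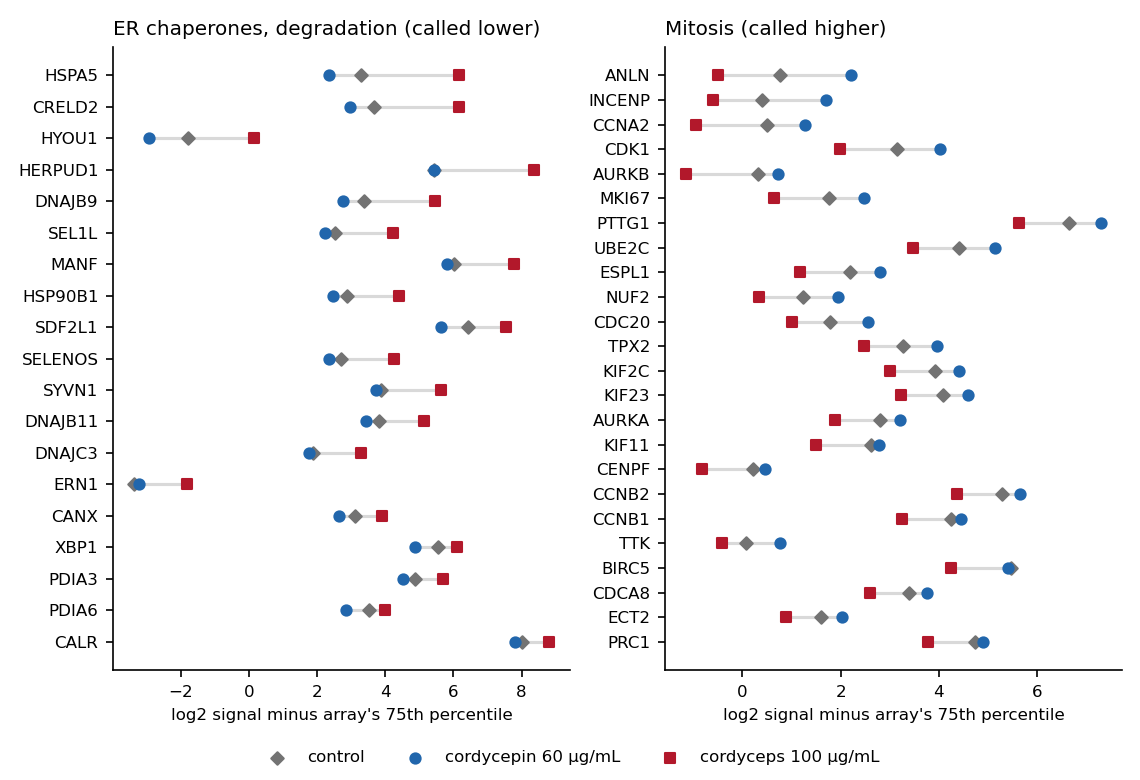
Log2 signal minus the array's 75th percentile for the called members of the ER list (left, 19 genes) and of the mitosis list (right, 24 genes), 1 row a gene and 1 point an array; levels compare arrays within a gene, not genes with each other. In the ER panel cordyceps stands above the other arrays, with HSPA5 farthest from cordycepin (13.9-fold), and in the mitosis panel cordyceps stands below them.

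The ATF4 and integrated stress response list was lower as well. All 26 members with a probe outside the corner were detected, 12 were called lower, where 5.23% of all genes were, and none higher. Of the 26 ratios 25 were negative, with a median of -0.98. DDIT3, which encodes the pro-apoptotic factor CHOP, gave a signal of 482 on the control array, 1038 with cordycepin and 9213 with cordyceps, and was 8.27-fold lower. PPP1R15A, the phosphatase subunit that reverses eIF2α phosphorylation, gave 239, 474 and 1355 and was 2.66-fold lower. In both, cordycepin lay above the control and cordyceps far above cordycepin. ATF3, a factor downstream of ATF4, was 2.39-fold lower by its brightest probe, and its other probes had log2 ratios of 0.38 and -1.03.

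The list also holds amino acid transporters and enzymes. SLC3A2, the heavy chain of the large neutral amino acid transporter, was 3.93-fold lower with signals of 1981, 1599 and 6747. SLC7A11, the cystine transporter, had a log2 ratio of -1.58 and was called lower, and its light-chain relative SLC7A5 was not called at -0.69. PCK2, the mitochondrial phosphoenolpyruvate carboxykinase, was 3.07-fold lower by its brightest probe and had a log2 ratio of -0.47 by another. The mRNA of ATF4 itself, a factor set largely by translation, was not called at -0.81. CHAC1, a glutathione-degrading enzyme and a target of ATF4 and CHOP, gave 293, 2075 and 2330, a log2 ratio of -0.06 with both treated arrays above the control. NUPR1, a stress-induced nuclear protein, gave 1309, 2747 and 3175 and was likewise not called at -0.11. TRIB3, ASNS, PSAT1 and STC2 had probes only in the corner.

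Mitotic genes were higher with cordycepin than with cordyceps. Of 35 listed genes, 27 were detected, each on both arrays, and 24 were called higher, where 6.43% of all genes were, with none lower. All 27 ratios were positive, with a median of 1.37, and the median was 0.80 under median scaling, which left 10 called. ANLN, which encodes the cleavage-furrow protein anillin, gave 452 on the control array, 1055 with cordycepin and 172 with cordyceps, a 6.58-fold difference. INCENP, a scaffold of the chromosomal passenger complex, gave 351, 739 and 161 and was 4.94-fold higher. In these genes the control stood between the treatments.

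CCNA2, which encodes cyclin A2, was 4.65-fold higher, and MKI67, the common proliferation marker, 3.58-fold higher with a second probe at 2.04 on the log2 scale. AURKB, the kinase of the passenger complex, gave 331, 376 and 110 and was 3.68-fold higher. CCNB1, encoding cyclin B1, gave 5033, 4950 and 2321 and was 2.29-fold higher. BIRC5, encoding survivin, gave 11766, 9611 and 4614 and was 2.24-fold higher. The control was thus near the cordycepin value for AURKB, CCNB1 and BIRC5, and it was the closer one for 20 of the 24 called genes. CENPA, CENPE and BUB3, which serve the centromere and the spindle checkpoint, were not called at 0.77, 0.98 and 0.31. CDK1, among the called genes, gave 2.05 on the log2 scale by its brightest probe and 0.22 by another. A further 7 members had probes only in the corner.

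DNA replication and G1/S genes followed the same direction. Of 40 listed genes, 36 were detected, 24 were called higher, where 6.43% of all genes were, and none lower. The median over the 31 detected on both arrays was 1.26, or 0.69 under median scaling. The replication helicase was represented by MCM4, at 3.37-fold, MCM6 at 2.90-fold, MCM3 at 2.49-fold and MCM2 at 2.36-fold. Its GINS partners GINS2 and GINS1 were 5.08-fold and 4.50-fold higher. GINS2 gave 707 on the control array, 856 with cordycepin and 181 with cordyceps, so that cordyceps was the low one.

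TK1, the thymidine kinase of S phase, gave 27111, 35455 and 9023 and was 4.22-fold higher. E2F1, a factor that drives G1/S genes, gave 203 on the control array and 206 with cordycepin and was not detected with cordyceps at 34.1, at least 6.40-fold higher. RRM2, a ribonucleotide reductase subunit, was likewise undetected with cordyceps, at least 4.93-fold higher. PCNA, the polymerase clamp, gave 11137, 10756 and 4885 and was 2.36-fold higher, with a second probe at 1.33 on the log2 scale. For 20 of the 24 called genes the control was closer to cordycepin, and for all 24 it lay between the treated levels.

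Matches to the cell cycle elements were looked up in the same promoters. The CHR letters TTTGAA occurred on either strand in 15.4% of all promoters and in 20 of 29 mitosis members in the table, 14 of 19 called and 1 of 2 not called. The E2F letters TTTNNCGC occurred in 6.9% of all and in 21 of 33 replication members, 12 of 19 called and 6 of 10 not called. The promoters of ANLN, at chr7:36389612-36389861 on the plus strand, and of E2F1, at chr20:33686386-33686635 on the minus strand, are shown for the member of each list with the highest ratio or bound, with those letters in capitals.
ANLN: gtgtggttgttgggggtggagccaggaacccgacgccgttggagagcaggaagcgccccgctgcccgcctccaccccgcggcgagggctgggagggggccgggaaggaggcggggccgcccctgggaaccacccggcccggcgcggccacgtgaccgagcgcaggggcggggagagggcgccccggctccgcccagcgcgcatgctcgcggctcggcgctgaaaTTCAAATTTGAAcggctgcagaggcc
E2F1: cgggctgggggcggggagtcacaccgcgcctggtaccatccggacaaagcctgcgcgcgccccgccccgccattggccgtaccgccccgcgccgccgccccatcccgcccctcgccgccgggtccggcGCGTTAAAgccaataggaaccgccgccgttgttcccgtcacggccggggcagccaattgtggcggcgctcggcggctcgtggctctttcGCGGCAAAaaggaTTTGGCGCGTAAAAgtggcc
ANLN holds 2 matches on opposite strands next to each other, 14 and 20 bases before the start, and E2F1 holds 4, from 6 to 114 bases before it.

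**Figure D3:**
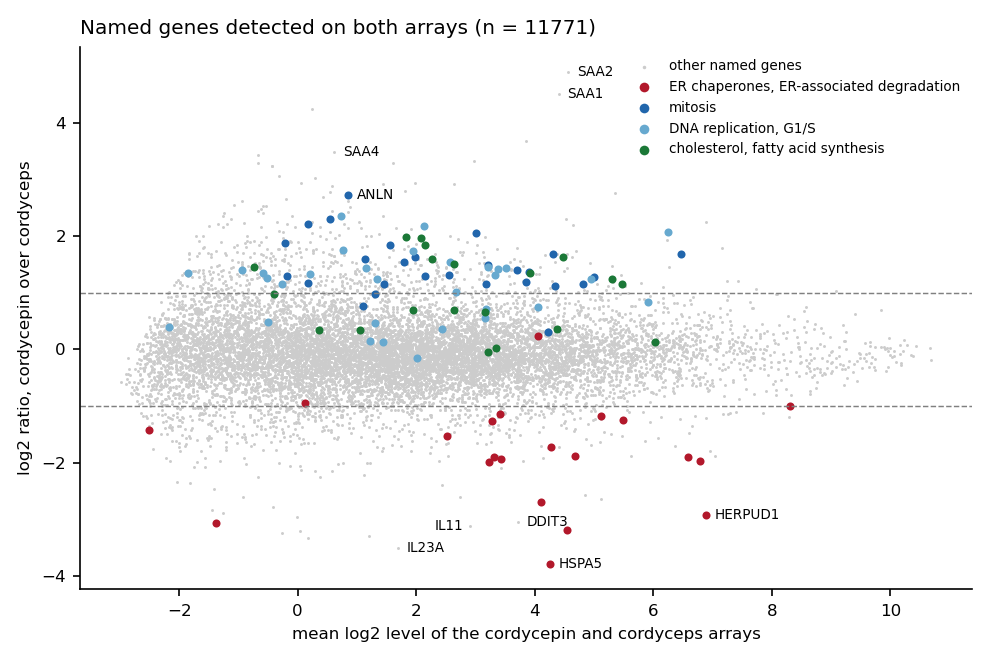
Log2 ratio of cordycepin over cordyceps against the mean log2 level of both arrays for 11771 named genes detected on both, with 4 gene lists in colour and dashed lines at 2-fold. ER genes lie below the cloud over most of the range of levels and cell cycle and cholesterol genes above it, while SAA2 has the highest ratio (29.9-fold).

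Genes of cholesterol and fatty acid synthesis were higher with cordycepin, with a different position of the control. Of 30 listed genes, 21 were detected, 10 were called higher, where 6.43% of all genes were, and none lower. The median was 1.06, or 0.49 under median scaling with 5 called. The other 9 had probes only in the corner. With the corner kept 16 genes were called, where 7.775% of all genes were higher. Keeping the corner also changed the scaling, and the median log2 ratio of all probes detected on both arrays moved from -0.06 to 0.05. How many of the added calls were corner genes was not counted. HMGCS1, which makes HMG-CoA, gave 699 on the control array, 1916 with cordycepin and 575 with cordyceps, a 3.58-fold difference. FDPS, which makes farnesyl diphosphate, gave 9042, 13822 and 6317 and was 2.35-fold higher. Here cordycepin was the high one and the control stood near cordyceps.

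FDFT1, encoding squalene synthase, was 3.10-fold higher and IDI1, an isoprenoid isomerase, was called higher at a log2 ratio of 1.59. INSIG1, the sterol-regulated anchor of SREBP processing, gave 1058, 1893 and 521 and was 3.90-fold higher. The control was closer to cordyceps in 8 of the 10 called genes. Genes for fatty acids were mixed: FASN, the fatty acid synthase, was 2.54-fold higher, while SCD, the stearoyl-CoA desaturase, had a log2 ratio of -0.05 and FADS1 of 0.12.

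Among genes measured on both arrays, the serum amyloid genes SAA2 and SAA1 had the highest ratios. SAA2 gave a signal of 474 on the control array, 29481 with cordycepin and 1059 with cordyceps, 29.9-fold higher with cordycepin (log2 ratio 4.90). SAA1 gave 710, 22988 and 1083 and was 22.8-fold higher, and SAA4 gave 81.9, 1164 and 111 and was 11.2-fold higher. These genes encode acute phase apolipoproteins. SAA1 and SAA2 are near-identical copies, and whether each probe reads only its own gene was not tested, so their separate values are uncertain. Another SAA2 probe was detected with cordycepin alone, with a bound of 4.12 on the log2 scale.

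The rest of the acute phase list did not follow SAA. Of 24 listed genes, 16 were detected, 3 were called higher, which were the SAA genes, and 5 lower. Of all genes 6.43% were higher and 5.23% lower. The list median was -0.24. CFB, complement factor B, gave 4100, 5041 and 11549 and was 2.13-fold lower, and SERPINA3, the antichymotrypsin gene, was 2.22-fold lower with a second probe at -1.42 on the log2 scale. ORM2, an orosomucoid, was 2.02-fold lower. In these genes the cordyceps value was the high one. FGB, a fibrinogen chain, gave 938, 248 and 563 and was 2.11-fold lower, and here cordycepin was the low one. LCN2, lipocalin 2, gave 9568, 21019 and 26033, a log2 ratio of -0.21.

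Of 16 listed chemokine ligands, 11 were detected and 4 were called higher, where 6.43% of all genes were. The list median was 0.37 (-0.21 under median scaling). CCL26, the eotaxin-3 that draws eosinophils, gave 170 on the control array, 519 with cordycepin and 59.1 with cordyceps, a 9.44-fold difference. CCL5, a T cell and monocyte attractant, gave 85.5, 929 and 135 and was 7.41-fold higher. CCL2, a monocyte attractant, gave 4249, 9555 and 3185 and was 3.22-fold higher, and CCL20 was 2.31-fold higher. The other CC ligand detected, CCL28, was not called, with a bound of 0.90 on the log2 scale. None of the detected CXC ligands was called, with log2 ratios of -0.74 for CXCL8, -0.69 for CXCL2, -0.57 for CXCL3, -0.45 for CXCL1, 0.29 for CXCL16 and 0.45 for CXCL5.

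Among cytokines, IL23A, the p19 chain of interleukin 23, gave 299 on the control array, 217 with cordycepin and 2658 with cordyceps and was 11.4-fold lower. IL11, a cytokine of the IL-6 family, gave 1773, 580 and 5431 and was 8.72-fold lower. CSF2, which encodes GM-CSF, was detected with cordycepin alone, at 89.3, and was at least 2.78-fold higher. These were the called genes among 19 detected of 24, where 6.43% of all genes were higher and 5.23% lower. IL6 had a log2 ratio of -0.90, with signals of 195, 557 and 1118, and IL1B of 0.82, with 1014, 2809 and 1713; neither was called. None of the 19 detected NF-κB subunits and feedback inhibitors was called, and their median was -0.14.

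Of 26 listed p53 targets, 23 were detected, 8 were called higher, where 6.43% of all genes were, and none lower. The list median was 0.59. Under median scaling the median was 0.01 and 3 were called, where 2.18% of all genes were higher. POLH, a translesion polymerase, gave 265 on the control array, 337 with cordycepin and 107 with cordyceps, a 3.40-fold difference. TP53I3, an oxidoreductase, gave 4206, 10739 and 3461 and was 3.33-fold higher, and TP53INP1, a stress-induced nuclear protein, was 3.19-fold higher. RRM2B, the p53-induced reductase subunit, gave 514, 995 and 480 and was 2.23-fold higher with a second probe at 1.43 on the log2 scale. The best known targets CDKN1A and MDM2 were not called, at 0.56 and 0.07. TNFRSF10B, the death receptor DR5, which CHOP also induces, was at -0.53.

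Interferon-stimulated genes called in the comparison were all higher with cordycepin, 8 of 25 detected of 36 listed, where 6.43% of all genes were. The list median was 0.42. Under median scaling that median was -0.16 and 2 were called, where 2.18% of all genes were higher. The list median lay 0.50 above the all-gene median in both scalings, a distance that a shift of every ratio by one amount cannot change. ISG15, a ubiquitin-like modifier, gave 2125, 8316 and 3413 and was 2.62-fold higher. OAS3, which makes the activator of RNase L, gave 326, 521 and 165 and was 3.39-fold higher. IFI44 was detected with cordycepin at 131 and not with cordyceps, at least 4.09-fold higher. Among transcription factors of the pathway, STAT2 and IRF9 were not called, at -0.36 and -0.22.

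Cytosolic heat shock genes included 5 called higher of 18 detected, where 6.43% of all genes were. The list median was 0.39 and turned to -0.18 under median scaling. HSPA6, a strictly inducible HSP70, was detected at 27.1 on the control array and 176 with cordycepin and not with cordyceps, at least 5.49-fold higher. HSP90AA1, the inducible cytosolic HSP90, gave 63221, 70261 and 36104 and was 2.09-fold higher with a second probe also called higher. HSPA1B, whose near-identical copy HSPA1A may share its probe, was called higher at the 2-fold limit, with cordyceps as the low value. The cytosolic chaperones called were therefore higher with cordycepin, and those of the ER lower.

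Of 27 YAP and TGF-β responsive genes, 23 were detected, 4 were called higher and 1 lower, where 6.43% and 5.23% of all genes were. CCN1, a secreted matricellular protein, gave 1725, 4314 and 1357 and was 3.42-fold higher. CCN2, its relative also called connective tissue growth factor, was not detected with cordyceps and was at least 4.26-fold higher. TGFB2 was 3.18-fold higher, ANKRD1 at least 3.06-fold higher, and CCN3 2.25-fold lower. Among NRF2 targets 4 of 20 detected were lower, where 5.23% of all genes were, and none higher. GCLC, the rate-limiting enzyme of glutathione synthesis, gave 2342, 1317 and 3924 and was 2.78-fold lower, and ABCC3, a drug and bile salt exporter, gave 36521, 10378 and 36580 and was 3.28-fold lower with another probe at -0.84 on the log2 scale. The control stood beside cordyceps for ABCC3 and between the treatments for GCLC.

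A list of 22 genes held those encoding proteins that the study followed, with close relatives. DUSP5, an ERK phosphatase, gave a signal of 3372 on the control array, 6922 with cordycepin and 3397 with cordyceps and was 2.19-fold higher. It was the only one called of 20 detected, where 6.43% of all genes were higher and 5.23% lower. CAV1, encoding caveolin-1, gave 6882, 5483 and 4661, a log2 ratio of 0.34 that was -0.24 under median scaling. BAX, the pro-apoptotic pore protein, had log2 ratios of 0.77 and 0.70 by its probes. MAPK8, which encodes JNK1, was dim, and its 3 probes gave -0.18, -0.48 and 0.18. The FOXO3 probes gave -0.16 and 0.04, and AKT1 gave 0.0019. SFN had probes only in the corner.

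Lists tied to the known actions of cordycepin moved little. The counts in this paragraph are to be set against all genes, of which 6.43% were called higher and 5.23% lower. Of 31 genes of polyadenylation and deadenylation, 26 were detected, none was called and the median was -0.05. Of 27 genes of adenosine uptake, metabolism and receptors, 18 were detected. Of these NT5E, which makes extracellular adenosine, was called, with signals of 633 on the control array, 147 with cordycepin and 385 with cordyceps and a 2.44-fold lower value. None of 38 detected cytosolic ribosomal protein genes was called, with a median of -0.29, and none of 35 respiratory chain genes, with a median of 0.12 that turned to -0.45 under median scaling. Replication-dependent histones, many of them close copies, had 3 called higher of 40 detected, close to the 6.43% of all genes. Their median was 0.57, and -0.0077 under median scaling.

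Outside these lists the largest differences were scattered over functions. INPP5D, a phosphoinositide phosphatase of blood cells, gave 167 on the control array, 1175 with cordycepin and 66.5 with cordyceps, a log2 ratio of 4.25. PIP, a secreted glandular protein, was 10.0-fold higher, CAVIN2, a caveola coat protein, 9.74-fold, SERPINF1, which encodes the antiangiogenic PEDF, 8.37-fold, and PI3, the elastase inhibitor elafin, 7.68-fold. ATG16L1, an autophagy gene, was 10.8-fold higher, but with the corner kept a probe there gave -0.0047. On the lower side, C6orf120 gave 452, 167 and 1765 and was 9.86-fold lower. GCGR, the glucagon receptor, was 9.22-fold lower and UCN2, the peptide urocortin 2, 6.93-fold lower. C3orf80 was 10.1-fold lower, with a second probe at -3.67 on the log2 scale.

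Some genes were detected in a single condition of the pair. KRT4, a keratin of stratified epithelium, gave 957 with cordycepin and was at least 28.9-fold higher, and PRAC1 gave 945 and was at least 29.4-fold higher. CDH15, or M-cadherin, gave 828 with cordyceps and was at least 35.3-fold lower with cordycepin. LIN28A, the RNA-binding protein of stem cells, gave 287 with cordyceps and was at least 12.3-fold lower. KRT4 was detected on the control array at 113, and PRAC1, CDH15 and LIN28A were not.

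Both treated arrays carried markers of A549 cells. Of 17 epithelial markers 12 were detected on at least 1 treated array and 10 on both. KRT7, KRT18 and AKR1B10 were among the 12, while the surfactant genes SFTPA1, SFTPB and SFTPD were not detected. SFTPC, another surfactant gene, was detected with cordycepin at 55.7 and not with cordyceps, and was not called. EPCAM was 2.14-fold lower and KRT19 2.67-fold higher with cordycepin. KRT8 was 2.31-fold higher by its brightest probe and gave -0.02 and 0.49 on the log2 scale by others. Of leukocyte and blood markers, PTPRC, ITGAM and CSF1R were detected at signals of at most 135, none was called, and CD3E and MS4A1 were not detected. CD68, LYZ and HBA1 had no named probe. Of 11 endothelial and fibroblast markers, CDH5, KDR and COL1A1 had probes only in the corner. Among the other 8 only VWF was detected on either treated array, with cordycepin at 37.4, and it was not called.

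Called probes were spread over the array outside the corner. On a grid of 8 by 8 blocks, 52 of which lie outside it, the share of detected probes called higher ran from 4.55% to 8.97% and the share called lower from 2.58% to 8.42%. The highest block was 1.35 times the mean for higher calls and 1.61 times for lower calls. With the percentile taken over the whole array, 15.8% of detected probes inside the corner were lower, compared with 4.11% elsewhere. Under the main scaling the share elsewhere was 5.23%.

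**Figure D4:**
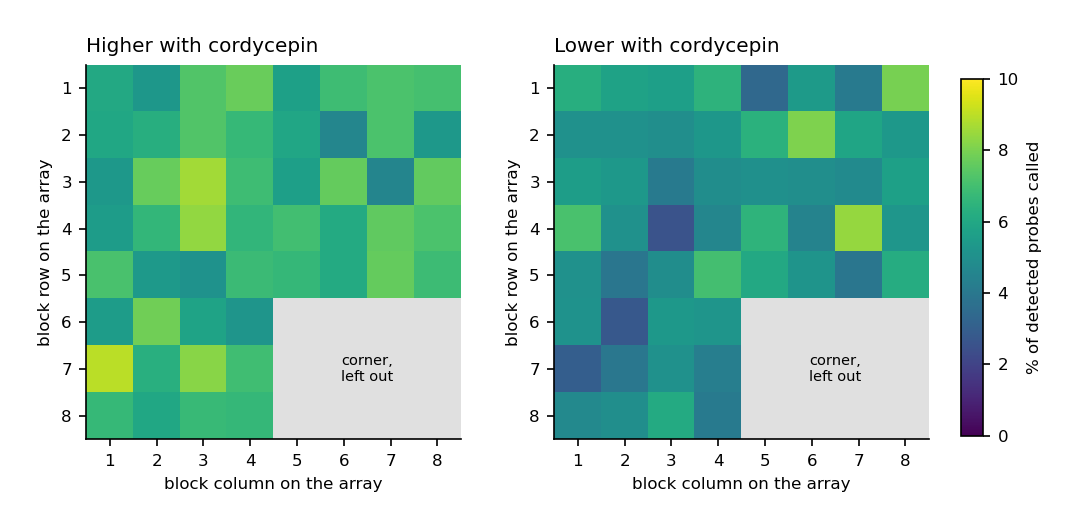
Share of detected probes called at least 2-fold higher (left) or lower (right) with cordycepin, in percent, for each block of an 8 by 8 grid over the array, with the corner that was left out in grey. Shares run from 4.55% to 8.97% for higher and from 2.58% to 8.42% for lower calls.

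Over the settings tried, the medians of 21 of 36 lists crossed 0 and those of 15 kept one sign. The ER median ran from -2.47 to -1.64, the mitosis median from 0.80 to 1.61, the replication median from 0.69 to 1.40 and the cholesterol median from 0.49 to 1.19. Median scaling gave the low end of each of these ranges.

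**Figure D5:**
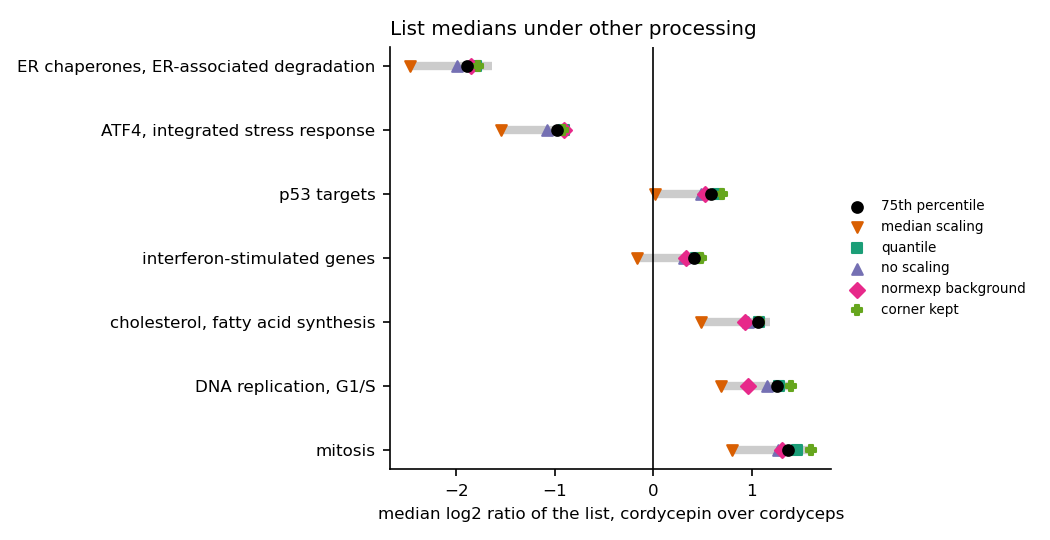
Median log2 ratio of 7 gene lists under the 75th-percentile scaling (black) and 5 other settings, with a grey bar over the full range of settings tried. The ER and ATF4 medians stay below 0 and those of mitosis, replication, cholesterol and p53 above 0, while the interferon median turns to -0.16 under median scaling.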

How the data were processed

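RNA of A549 cells was hybridized to 1 single-colour (Cy3) Agilent array a condition, 3 arrays on 1 slide. The study's methods name Cy3 and Cy5, but the deposited scanner files hold 1 channel, so ratios were taken between arrays. The authors deposited, per the file headers, spot intensity values made with Feature Extraction 11.5.1.1, background-subtracted within the array and not scaled between arrays. They also deposited an intensity value table, which lay within 1% of the mean processed signal for at least 99.9% of probes, with column medians of 20.3, 21.1 and 16.9 for control, cordycepin and cordyceps.

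Control spots, outlier-flagged spots (70 and 44 outside the corner on the cordycepin and cordyceps arrays) and a corner (rows above 5/8 and columns above 1/2 of the highest) were left out. The corner was set after results had been seen. Log2 signals were reduced by each array's 75th percentile, 227 for cordycepin and 244 for cordyceps, and spots of a probe were averaged. No spot was saturated (0 on each array). Spots of probes printed at least 5 times had a median SD of 0.0539 and 0.0516 in log2 units. The number of arrays limits the precision. Accessions, without versions, matched RefSeq transcripts of GRCh38.p14 for 31104 of 58201 probes, which gave names only, since the array design uses hg19; 3039 symbols had probes only in the corner. A gene took its brightest probe over the arrays compared. Named genes were the 15 largest ratios and 5 largest bounds in each direction whose other probes had the same sign, of which some are given, members of 37 lists, and genes the study follows as proteins; some members are counted but not reported here by name. Members and lists were chosen with earlier results of these data known. On simulated data with 200 of 47377 probes changed 4-fold, 200 were recovered and 0 others called. Both simulated sides were copies of the cordycepin array, with spot noise below the single-probe SD of 0.377, and only bright detected probes were changed. The simulation therefore checks the computation and gives no error rate for the real arrays. Python 3.11.15, numpy 2.4.6, pandas 2.3.3, matplotlib 3.10.9, R 4.3.3 and limma 3.58.1 (normexp with an offset of 50) were used. Alternatives covered scaling, background correction, detection, outlier spots, the value table, thresholds, the corner, local shifts and the probe of a gene. Leaving out 3 blocks with call rates above 1.5 times the mean and taking second probes were added after seeing the data.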

Additional observations from a re-analysis of the deposited data

Results flagged for a closer look

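The corner of the cordyceps array that was left out held spots with an outlying local background, a column that enters no comparison. They made up 11.2% of its spots on that array, whereas the same corner held 0 such spots in control and 0 with cordycepin. Outside the corner the shares were 3.16% with cordyceps, 0.471% with cordycepin and 2.38% in control. The part of this background in the lower calls of the corner was not tested.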

How the results depend on the processing

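With 1 array a condition, limits come from the processing. No paired analysis was possible because each condition has 1 array. The main counts were 1519 probes higher and 1201 lower. They became 502 and 4750 with median scaling, 721 and 490 with normexp background correction, 4149 and 2131 with no detection filter, 4148 and 2131 where a positive and significant signal sufficed, 3418 and 3288 at 1.5-fold, 498 and 300 at 3-fold, and 845 and 687 for named genes. Detection on both arrays gave 1000 and 930, and keeping the corner 2260 and 1849. The share of calls that were higher was 55.8%, but 9.56% with median scaling, 45.1% without scaling, 66.1% without a detection filter and 66.5% with the percentile over the whole array. Median scaling shifts every ratio by one amount, and thresholds and filters change what is counted; for normexp the cause was not tested. Under median scaling 2.18% of all genes were higher and 22.6% lower, and the genes called higher were 10 for mitosis, 8 for replication, 5 for cholesterol, 3 for p53 and 2 for interferon-stimulated genes. A 3-fold threshold gave the same 5 counts of 10, 8, 5, 3 and 2, with 12 lower for the ER list and 3 for ATF4. At that threshold 2.16% of all genes were higher and 1.26% lower. The shift of -0.58 under median scaling puts its 2-fold limit for higher calls near 3-fold in the main ratios. The equal counts are therefore not independent. With the corner kept, 16 cholesterol genes were higher, where 7.775% of all genes were. Over all settings the ER count ran from 12 to 20 and its median from -2.47 to -1.64, and the mitosis median from 0.80 to 1.61. A change of sign was looked for among called named genes and among lists with a median of 2-fold or more. It was found for ATG16L1 with the corner kept (-0.0047) and, with the second probe, for ATF3 (0.38) and KRT8 (-0.024). Uncalled genes and smaller list medians were not part of this, and of all 36 list medians 21 crossed 0. CDK1, 4.13-fold higher by its brightest probe, gave 0.22 on the log2 scale by another probe, the one used when blocks with high call rates were left out. Bounds of dim genes were lower with normexp, at log2 1.46 for E2F1, 1.46 for HSPA6 and 1.05 for CCN2. Signal over background limits bounds, since the lowest detected signal was 34.5 with cordyceps and 21.8 with cordycepin.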

Other observations

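Small nucleolar RNAs, which guide the modification of ribosomal RNA, were higher with cordycepin more often than lower, a class chosen after its values were seen. Of 183 detected, 26 were called higher (14.2%) and 1 lower (0.546%), where protein-coding genes had 5.88% and 5.17%, and their median log2 ratio was 0.24. SNORA67 gave a signal of 2365 on the control array, 11781 with cordycepin and 990 with cordyceps and was 12.8-fold higher. SNORA2B gave 443, 2176 and 240 and was 9.74-fold higher, and SNORA57 gave 4605, 24142 and 3848, a log2 ratio of 2.75. In these the cordycepin array was the high one. A snoRNA probe may also read its host transcript, which was not tested. Of 1059 detected lncRNA genes, 116 (10.95%) were higher and 73 (6.89%) lower.

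Other lists held few calls, and of all genes 6.43% were called higher and 5.23% lower. Of 23 detected genes of glucose transport, glycolysis and hypoxia, ALDOC, the aldolase of brain, was called, with signals of 315, 1007 and 244 and a 4.43-fold higher value. Among 12 detected death and dependence receptor genes and ligands, NTN1, which encodes netrin-1, gave 79.4, 774 and 128 and was 6.47-fold higher, and TNFRSF10C and TNFRSF9 were 2.19-fold and 2.01-fold lower. Of 21 BCL2 family and caspase genes, BIK and BMF, which promote apoptosis, were 2.05-fold and 2.28-fold higher, and BCL2L11 was 2.10-fold lower with other probes at -0.36 and 0.51 on the log2 scale. EGFR, a growth factor receptor, was 2.18-fold higher, while its relative ERBB3 was 2.36-fold lower, with another probe at -0.17 on the log2 scale. PTGS2, the inducible cyclooxygenase, gave 4656, 3482 and 10141 and was 2.71-fold lower, the single call among 8 detected genes of eicosanoid synthesis. CLDN2, a tight junction channel, gave 39572, 7538 and 24961 and was 3.08-fold lower. PLAT, the tissue plasminogen activator, was 4.76-fold higher, and MMP1, a collagenase, 2.28-fold lower. None of 13 detected MHC class I and antigen processing genes and none of 6 metallothionein and zinc genes was called. ICAM1 was 2.08-fold higher and IRAK2 2.21-fold lower among 11 adhesion and pattern receptor genes. Of 17 AP-1 and immediate early genes, FOSL1 was 2.45-fold higher and BATF3 2.74-fold lower. Besides DUSP5, DUSP10 was 2.09-fold higher among 7 dual-specificity phosphatases. ANGPTL4 was 2.12-fold higher, the single call among 8 PPARγ and lipid droplet genes, with a control of 12454 above cordycepin at 6352 and cordyceps at 3224.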
